A study of Mus musculus with 39 samples.

Results

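The IL-1 family cytokines and receptors described here are the 10 genes Il1a, Il1b, Il1rn, Il33, Il18, Il1r1, Il1r2, Il1rl1, Il18r1 and Il18rap, chosen by symbol from the 20520 genes of the deposited table, and all 10 had a row. IL-1 alpha, IL-1 beta, IL-33 and IL-18 are signals of tissue damage and inflammation. IL-1 alpha and IL-1 beta signal through the same receptor chain, and IL-33 and IL-18 each through their own. A shared or partner chain joins, and the adaptor MYD88 then carries the signal through IRAK kinases to NF-kB and MAP kinases. The family also holds brakes, namely the receptor antagonist encoded by Il1rn and the decoy receptor encoded by Il1r2. In tumors these cytokines can come from the cancer cells, from macrophages and from stroma, and their receptors sit on epithelium, fibroblasts and lymphocytes.

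The study grafted PB2 mouse breast tumor cells bearing one of 2 forms of the HER2 receptor. FL-HER2 is the full-length form, and p95HER2 lacks most of the extracellular part. Tumors were taken 10 or 22 days after implantation. Poly(A) RNA was sequenced from 10 FL-HER2 tumors at day 10, 9 FL-HER2 tumors at day 22, 10 p95HER2 tumors at day 10 and 10 p95HER2 tumors at day 22, 39 libraries in all. Every group carried one of the 2 constructs, so there was no tumor without introduced HER2 among the groups. The labels used here name no host strain, age, graft site or promoter of the construct, and they do not say how many clones of PB2 were used or whether each library was 1 tumor from a separate animal. The p-values therefore measure the spread between these libraries, which may be technical. Of the 10 FL-HER2 day 10 libraries 8 carry 5-digit numbers, and no library of the other groups does. The labels do not explain this difference.

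Each library held 21772259 to 44427621 reads on genes. Levels are given as CPM, the usual read count scaled to the library total, and differences on the log2 scale of the deposited values, which are log2(normalized count + 1). Tests are limma's moderated test over 13650 genes with Benjamini-Hochberg adjustment, and a gene is called at an adjusted p under 0.05. Epithelial markers were present in every group, with Epcam between 579 and 716 CPM and Krt8 between 589 and 637 CPM on average. Erbb2, to which reads of the constructs fall only as far as they align to the mouse gene, averaged 184 CPM at day 10 under FL-HER2 and 346 CPM under p95HER2. Tissue around the graft varied. The 20 skeletal muscle markers took 1.57% of reads on average in FL-HER2 at day 10 against 0.179% to 0.282% in the other groups, and 13 libraries had a high skin epidermis score (a mean log2 value of at least 6 over the tested skin markers). The 16 macrophage and monocyte markers had a summed level of 1910 ± 255 CPM (SD, n = 10) in the FL-HER2 group at day 10, and of 1232 ± 265 CPM (SD, n = 10) in the p95HER2 group. In RNA from whole tumors, fewer cells of a type and less RNA per cell cannot be told apart. The direction of calls over all genes moved with scaling, from 2071 higher and 3565 lower in p95HER2 at day 10 to 3908 higher and 2256 lower under quantile normalization.

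The promoters of Il1a, Il1rl1 and Il18rap are shown because these were the 3 members whose day 10 levels did not overlap between the constructs. The windows are from RefSeq on GRCm38.p6 and run 5′ to 3′ on the strand of the gene, from 250 bases before to 50 bases after an annotated start. Il1rl1 is shown with both of its windows. Capitals mark an AP-1 motif, spelled TGANTCA and searched on both strands. The Il1a window is chr2:129309923-129310222 on the minus strand, the Il1rl1 windows are chr1:40429320-40429619 and chr1:40439379-40439678 on the plus strand, and the Il18rap window is chr1:40515112-40515411 on the plus strand.
Il1a: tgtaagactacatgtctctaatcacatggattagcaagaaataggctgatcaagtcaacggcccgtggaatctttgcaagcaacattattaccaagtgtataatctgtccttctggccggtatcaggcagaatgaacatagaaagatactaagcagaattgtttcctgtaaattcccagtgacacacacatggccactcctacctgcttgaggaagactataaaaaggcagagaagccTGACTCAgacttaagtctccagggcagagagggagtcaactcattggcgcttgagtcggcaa
Il1rl1, upstream start: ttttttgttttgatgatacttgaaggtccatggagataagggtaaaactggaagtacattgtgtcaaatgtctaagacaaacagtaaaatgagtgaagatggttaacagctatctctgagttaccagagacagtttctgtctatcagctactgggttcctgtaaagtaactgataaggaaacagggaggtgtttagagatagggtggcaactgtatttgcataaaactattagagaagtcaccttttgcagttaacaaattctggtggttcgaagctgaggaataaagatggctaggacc
Il1rl1, downstream start: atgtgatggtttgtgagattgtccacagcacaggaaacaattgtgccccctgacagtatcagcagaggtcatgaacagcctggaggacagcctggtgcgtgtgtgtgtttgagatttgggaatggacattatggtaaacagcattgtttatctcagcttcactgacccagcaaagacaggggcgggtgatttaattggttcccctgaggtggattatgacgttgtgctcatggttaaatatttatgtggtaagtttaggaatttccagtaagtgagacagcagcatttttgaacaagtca
Il18rap: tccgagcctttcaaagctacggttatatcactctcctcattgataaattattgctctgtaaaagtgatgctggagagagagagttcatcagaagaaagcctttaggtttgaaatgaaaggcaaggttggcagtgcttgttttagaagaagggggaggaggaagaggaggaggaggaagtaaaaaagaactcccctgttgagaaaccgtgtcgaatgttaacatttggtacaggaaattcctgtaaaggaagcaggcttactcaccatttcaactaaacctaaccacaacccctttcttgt

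The AP-1 motif occurred once in the Il1a window, with its first base at position -12 from the start, and in neither of the Il1rl1 windows nor in that of Il18rap. Over the 17 windows of the 10 members, 2 held the motif, that of Il1a and 1 of Il1rn. Among 32851 promoter windows of the same length, 7.81% held it. The NF-kB consensus motif was found in 1 of the 17 member windows, at Il1r1, against 8.46% of all windows. These matches describe letters in the windows and say nothing of whether a factor bound there.

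**Figure D1:**
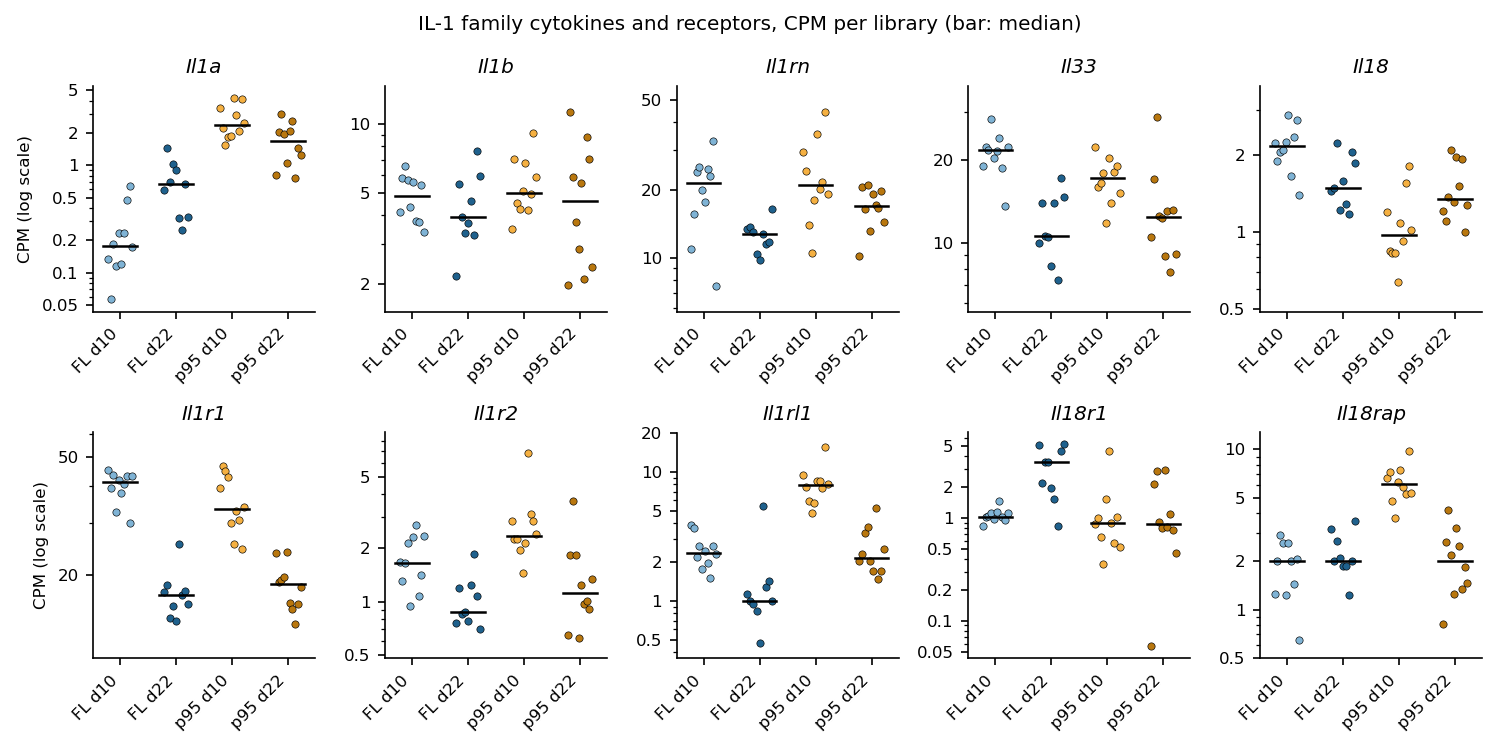
CPM of the 10 members in each library (vertical log axis, a separate range per gene), for FL-HER2 (FL) and p95HER2 (p95) tumors at day 10 (d10) and day 22 (d22), with a point per library and a bar at the group median. Il1a, Il1rl1 and Il18rap in the 10 p95HER2 day 10 libraries lie above all 10 FL-HER2 day 10 libraries, and Il1r1 lies lower at day 22 than at day 10 in both constructs without overlap.

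Which IL-1 family genes differed between the truncated and the full-length receptor was asked first at day 10. Il1a, Il1rl1 and Il18rap were higher in p95HER2 tumors and Il18 was lower, so 4 of 10 members were called (3 higher, 1 lower), while 41.3% of all tested genes were called (15.2% higher, 26.1% lower). The share of members called was thus close to that of all genes. The median log2 difference was 0.14 over the 10 members and -0.04 over all tested genes. Il1b, Il1rn, Il33, Il1r1, Il1r2 and Il18r1 were not called. For 3 members the 2 groups did not overlap, all 3 higher in p95HER2, against 2.85% of tested genes (1.43% higher, 1.42% lower).

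Il1a encodes IL-1 alpha, a cytokine that is active in its precursor form and is released from injured or stressed cells. At day 10 its CPM in FL-HER2 tumors had a lowest value of 0.0567, a median of 0.179 and a highest value of 0.637, which is 2 to 22 reads per library. In p95HER2 tumors the lowest value was 1.54, the median 2.34 and the highest 4.20 CPM, from 54 to 147 reads. Every p95HER2 library was thus above every FL-HER2 library. The log2 difference was 3.43 ± 0.32 (SE), a 10.8-fold higher level, with a 95% interval of 2.79 to 4.08 and an adjusted p of 1.07e-10 (limma, n = 10 per group). The call held in all 18 other settings, but the size moved from 1.54 on the log2(CPM + 1) scale, which understates changes of low genes, to 4.27 under quantile normalization. At day 22 the range was 0.248 to 1.46 CPM with a median of 0.671 in FL-HER2 and 0.764 to 3.02 CPM with a median of 1.70 in p95HER2. All 10 p95HER2 libraries were above the FL-HER2 median and 6 of them were above every FL-HER2 library, so the groups overlapped. The log2 difference at day 22 was 1.3 ± 0.33 (adjusted p = 0.0152 by limma). It was no longer called without the skin-high libraries (1.02, adjusted p = 0.206), in the 20 muscle-limited libraries with 0.1% to 1.3% of reads in muscle markers (1.05, adjusted p = 0.105), or in a rank-sum test (adjusted p = 0.0667). The muscle-limited libraries were 3 of FL-HER2 day 10, 7 of FL-HER2 day 22, 4 of p95HER2 day 10 and 6 of p95HER2 day 22.

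The order of mean Il1a levels was p95HER2 day 10 at 2.67 ± 0.96 CPM, p95HER2 day 22 at 1.70 ± 0.76 CPM, FL-HER2 day 22 at 0.696 ± 0.391 CPM and FL-HER2 day 10 at 0.237 ± 0.182 CPM (SD, n = 10, 10, 9 and 10). Adjacent groups differed in log2 terms by a fall of 0.76 ± 0.32 with time in p95HER2 that was not called (adjusted p = 0.0606) and by a rise of 1.37 ± 0.33 with time in FL-HER2 that was (adjusted p = 0.000612). The p95HER2 fall was called in 7 of 18 other settings (adjusted p down to 0.0137) and without p95HER2 day 10 replicate 3 or day 22 replicate 3 or 7. The FL-HER2 rise was not called with a term for library numbering. At day 10 in that construct 8 libraries carry 5-digit numbers and 2 carry 3-digit numbers, with median Il1a levels of 0.154 and 0.436 CPM, and with a term for the number of digits the rise was 0.51 ± 0.54 (adjusted p = 0.546). With that term the day 10 difference between constructs was 2.56 and still called (adjusted p = 0.00161). The p95HER2 effect on Il1a was smaller at day 22 than at day 10 by 2.13 ± 0.46 in log2 terms (adjusted p = 0.00121), a call that ended with the term for the number of digits (-1.26, adjusted p = 0.315) and in muscle-limited libraries (-2.3, adjusted p = 0.0567), while 19.6% of tested genes were called for such a change between days (13.5% higher, 6.2% lower). Of the members 3 were called, Il1a and Il18rap lower and Il18 higher.

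Il1b encodes IL-1 beta, which is made as an inactive precursor, mostly by myeloid cells, and is cut by caspase-1. Its CPM ranged from 3.37 to 6.60 (median 4.88) in FL-HER2 and from 3.49 to 9.16 (median 5.02) in p95HER2 at day 10. At day 22 it ranged from 2.17 to 7.62 (median 3.95) in FL-HER2 and from 1.97 to 11.3 (median 4.63) in p95HER2. All 4 groups overlapped, and the 95% intervals of the differences were -0.41 to 0.63 at day 10 and -0.49 to 0.58 at day 22 on the log2 scale. Il1b was called in none of the 5 comparisons. With the macrophage score of each library as a covariate the day 10 difference was 1.14 and called (adjusted p = 0.0225), a setting in which macrophage markers, lower in p95HER2, are held equal. Within libraries, the log2 ratio of Il1a to Il1b reads, without length correction, had a median of -4.39 (range -6.10 to -2.89) in FL-HER2 and -1.22 (range -1.64 to -0.02) in p95HER2 at day 10, with no overlap. At day 22 the medians were -2.44 and -1.31.

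Il1rn encodes the IL-1 receptor antagonist, which occupies IL1R1 without signaling. At day 10 it ranged from 7.51 to 33.0 CPM (median 21.5) in FL-HER2 and from 10.5 to 44.5 CPM (median 21) in p95HER2, and at day 22 from 9.75 to 16.5 CPM (median 12.8) and from 10.1 to 21 CPM (median 17.0). The constructs overlapped at both days and neither difference was called (log2 0.17 ± 0.22 and 0.41 ± 0.22, adjusted p = 0.554 and 0.353). With the macrophage covariate both were called, at 1.15 (adjusted p = 0.0043) and 0.82 (adjusted p = 0.0181). Per kilobase of exon, mean Il1rn was 3.65 CPM per kb and mean Il1b 2.54 CPM per kb in FL-HER2 at day 10, and 4.29 and 2.91 CPM per kb in p95HER2. The ratio of Il1rn to Il1b reads within a library had medians of 4.0 and 3.92 in these groups and of 2.76 and 3.98 at day 22.

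Il33 encodes IL-33, a nuclear alarmin of epithelium and stroma that signals through the receptor encoded by Il1rl1. Its CPM at day 10 ranged from 13.6 to 28.4 (median 21.8) in FL-HER2 and from 11.8 to 22.3 (median 17.3) in p95HER2. At day 22 it ranged from 7.27 to 17.2 (median 10.5) and from 7.81 to 28.8 (median 12.5). The constructs overlapped at both days. The day 10 difference of -0.37 ± 0.17 did not pass (adjusted p = 0.0785, unadjusted p = 0.036), but it was called when only the 2 groups compared were fitted (adjusted p = 0.0231) and in the rank-sum test (adjusted p = 0.0287). Per kilobase of exon, Il33 had the highest mean level of the 10 members in every group, at 7.37 CPM per kb in FL-HER2 day 10, 4.09 in FL-HER2 day 22, 5.94 in p95HER2 day 10 and 4.62 in p95HER2 day 22.

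Il18 encodes IL-18, a caspase-1 substrate that drives interferon gamma production in NK and T cells. At day 10 it ranged from 1.40 to 2.86 CPM (median 2.16) in FL-HER2 and from 0.635 to 1.81 CPM (median 0.971) in p95HER2. The groups overlapped, yet 8 of 10 p95HER2 libraries lay below every FL-HER2 library. The log2 difference was -1.07 ± 0.17, a 2.10-fold lower level (adjusted p = 5.47e-06, limma). Of the 16 macrophage and monocyte markers 15 were also lower in p95HER2 at day 10. With their score as a covariate the Il18 difference was -0.34 ± 0.22 and no longer called (adjusted p = 0.326). That covariate also lowered the day 10 calls over all genes from 5636 to 2010. The part of macrophages in the Il18 difference was not tested. At day 22 Il18 ranged from 1.18 to 2.22 CPM in FL-HER2 and from 0.996 to 2.09 CPM in p95HER2, with a log2 difference of -0.12 ± 0.18 (adjusted p = 0.785). The difference between the constructs changed between days by 0.95 ± 0.25 (adjusted p = 0.00601), a call that ended with the macrophage covariate (0.53, adjusted p = 0.112).

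The receptor genes were described next. Il1r2, Il1r1, Il1rl2, Il1rl1, Il18r1 and Il18rap lie side by side on the plus strand of chromosome 1 in GENCODE M21 (GRCm38), between positions 40074079 and 40551705, and Il1rl1 ends at 40465415, just before Il18r1 begins at 40465552. An antisense gene, Gm16894, lies within Il1r2, and since the strand setting of the counting is not given in the sources used here, reads of the 2 cannot be told apart, although Gm16894 itself had at most 0.0201 CPM on average in a group. Il1a (129299610 to 129309972) and Il1b (129364570 to 129371139) are neighbours on the minus strand of chromosome 2, which also holds Il1rn (24336853 to 24351494). Il18 lies on chromosome 9 (50554827 to 50581840) and Il33 on chromosome 19 (29925114 to 29960718).

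Il1rl1 encodes ST2, the IL-33 receptor, which exists as a membrane form and as a soluble decoy. Reads are counted per gene here, so the forms are not separated. At day 10 its CPM ranged from 1.5 to 3.86 (median 2.35) in FL-HER2 and from 4.79 to 15.5 (median 7.83) in p95HER2. All 10 p95HER2 libraries were above all 10 FL-HER2 libraries. The log2 difference was 1.63 ± 0.27, a 3.10-fold higher level (95% interval 1.09 to 2.18, adjusted p = 8.19e-06, limma). It remained called in all 19 other settings, with values from 1.37 to 2.07. Mast cells and basophils are known to express ST2. Of 10 mast cell and basophil markers 2 passed the filter, Kit and Gata2, and both were lower in p95HER2. The 10 markers together ranged from 106 to 202 CPM at day 10 with FL-HER2 and from 86.3 to 143 CPM with p95HER2, mostly from Kit. Without Kit, Gata2 and Mcpt8 the other 7 had a sum of 4.0 ± 2.75 CPM and 2.34 ± 1.81 CPM (a sum chosen after the values were seen). The basophil protease Mcpt8 averaged 0.0416 CPM with FL-HER2, where it was at 0 in 5 of 10 libraries, and 0.384 CPM with p95HER2, and its part in the Il1rl1 difference was not tested. Within groups Il1rl1 had a correlation of 0.47 with the neutrophil score over 39 libraries, and with that score as a covariate its difference was 1.76. That score is the mean of the 6 neutrophil markers that passed the filter. Ly6g, S100a9, Cxcr1, Cxcr2, Retnlg, Ngp and Camp did not pass and are not in it. The covariate therefore does not hold these genes equal, and the part of neutrophils in the Il1rl1 difference was not tested.

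At day 22 Il1rl1 ranged from 0.467 to 5.37 CPM (median 0.999) in FL-HER2 and from 1.47 to 5.21 CPM (median 2.16) in p95HER2. All 10 p95HER2 libraries were above the FL-HER2 median, but FL-HER2 replicate 6, at 5.37 CPM, was above all of them in CPM, and above 9 of 10 on the scale that was tested. The log2 difference was 1.02 ± 0.28, a 2.03-fold higher level (adjusted p = 0.0248). This call was not stable. It ended in 6 of 19 other settings, among them leaving out the skin-high libraries (0.87, adjusted p = 0.216). It also ended when any 1 of FL-HER2 replicates 3, 4 and 5 or p95HER2 replicates 4 and 7 was left out (adjusted p up to 0.0588). Over all libraries left out in turn, the log2 difference ranged from 0.86 to 1.29 and the adjusted p by limma went down to 0.000298. The highest difference was that without FL-HER2 replicate 6. Whether the p95HER2 effect on Il1rl1 differed between days did not pass the test (-0.61 ± 0.39, adjusted p = 0.262).

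Il18rap and Il18r1 encode the accessory and the ligand-binding chain of the IL-18 receptor, found on NK cells and T cells. Il18rap at day 10 ranged from 0.649 to 2.90 CPM (median 2.01) in FL-HER2 and from 3.75 to 9.81 CPM (median 6.04) in p95HER2, again with no overlap. The log2 difference was 1.73 ± 0.25, a 3.31-fold higher level (95% interval 1.22 to 2.24, adjusted p = 1.37e-06, limma), and it stayed called in all 18 other settings that tested it. Il18r1 at day 10 ranged from 0.830 to 1.44 CPM (median 1.03) in FL-HER2 and from 0.358 to 4.46 CPM (median 0.889) in p95HER2, and its difference of -0.25 ± 0.43 was not called (adjusted p = 0.659). The sign of the Il18r1 value was not stable, since it was 0.27 under quantile normalization and 1.44 with the macrophage covariate, neither of them called. Within libraries the log2 ratio of Il18rap to Il18r1 reads had a median of 0.77 in FL-HER2 day 10, 2.84 in p95HER2 day 10, -0.37 in FL-HER2 day 22 and 0.94 in p95HER2 day 22. This ratio was chosen after the values were seen and was not tested.

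The level of lymphocyte markers at day 10 stands beside that of Il18rap. Of 11 tested T cell markers none was higher and 1 was lower, and their sum ranged from 10.8 to 33.0 CPM (median 17.4) in FL-HER2 and from 5.47 to 69.6 CPM (median 14.7) in p95HER2. Of 5 tested NK cell markers, Eomes was higher (0.33 ± 0.13, adjusted p = 0.0467) and Klrk1 and Gzma were lower, and the sum of all 8 markers in the table ranged from 10.5 to 27.4 CPM (median 19.0) in FL-HER2 and from 7.77 to 31.3 CPM (median 14.2) in p95HER2. Ncr1, an NK cell receptor, averaged 0.613 CPM with FL-HER2 and 0.224 CPM with p95HER2.

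At day 22 Il18r1 was lower in p95HER2 and Il18rap was not called. Il18r1 ranged from 0.838 to 5.2 CPM (median 3.48) in FL-HER2 and from 0.0564 to 2.92 CPM (median 0.866) in p95HER2. All 10 p95HER2 libraries were below the FL-HER2 median and 5 were below every FL-HER2 library. The log2 difference was -1.56 ± 0.44, a 2.95-fold lower level (adjusted p = 0.0322). Of the 11 T cell markers 8 were lower in p95HER2 at day 22 and none was higher, with a sum of 57.0 ± 23.9 CPM (SD, n = 9) in FL-HER2 and 23.3 ± 14.9 CPM (SD, n = 10) in p95HER2. The part of these markers in the Il18r1 difference was not tested. The call ended in 7 of 18 other settings, with the macrophage covariate giving -0.85 (adjusted p = 0.287), and when any 1 of FL-HER2 replicates 1, 3, 4, 8 and 9 or p95HER2 replicates 1, 4, 9 and 10 was left out (adjusted p up to 0.0815). Il18rap at day 22 ranged from 1.24 to 3.55 CPM in FL-HER2 and from 0.817 to 4.20 CPM in p95HER2, with a difference of -0.18 ± 0.26 (adjusted p = 0.785). The p95HER2 effect on Il18rap therefore fell by 1.90 ± 0.36 between days (adjusted p = 0.000377), and that on Il18r1 changed by -1.31 ± 0.61, which did not pass (adjusted p = 0.126).

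Il1r1 encodes the signaling receptor of both IL-1 forms. Per kilobase of exon it had the highest mean level of the 6 genes in the receptor cluster in every group, from 2.72 CPM per kb in FL-HER2 day 22 to 6.25 in FL-HER2 day 10. Its CPM ranged from 29.8 to 45.3 (median 41.3) in FL-HER2 and from 24.5 to 46.7 (median 33.3) in p95HER2 at day 10, and from 13.9 to 25.4 (median 17.1) and from 13.5 to 23.8 (median 18.5) at day 22. The constructs overlapped at both days. The difference of -0.26 ± 0.11 at day 10 missed the threshold (adjusted p = 0.0551) and passed it in 4 of 19 other settings, up to -0.56 with the macrophage covariate. At day 22 the 95% interval of the difference was -0.14 to 0.31.

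Il1r2 encodes the decoy receptor, which binds IL-1 without signaling. At day 10 it ranged from 0.944 to 2.68 CPM (median 1.66) in FL-HER2 and from 1.45 to 6.86 CPM (median 2.32) in p95HER2, and at day 22 from 0.702 to 1.86 CPM (median 0.878) and from 0.627 to 3.67 CPM (median 1.12). The groups overlapped and neither difference was called (0.56 ± 0.26, adjusted p = 0.074, and 0.29 ± 0.26, adjusted p = 0.61). The day 10 difference was called in 4 of 18 other settings, among them quantile normalization (1.05, adjusted p = 0.00147), and without FL-HER2 replicate 7 or p95HER2 replicate 5. Il1r2 moved with skin. Its within-group correlation with the skin score over 39 libraries was 0.60, and in p95HER2 at day 10 the 5 libraries with a skin score of at least 7 had a median of 2.83 CPM against 2.14 CPM in the other 5. Per kilobase of exon, mean Il1r2 was 0.919 CPM per kb in FL-HER2 and 1.47 in p95HER2 at day 10, where mean Il1r1 was 6.25 and 5.52.

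**Figure D2:**
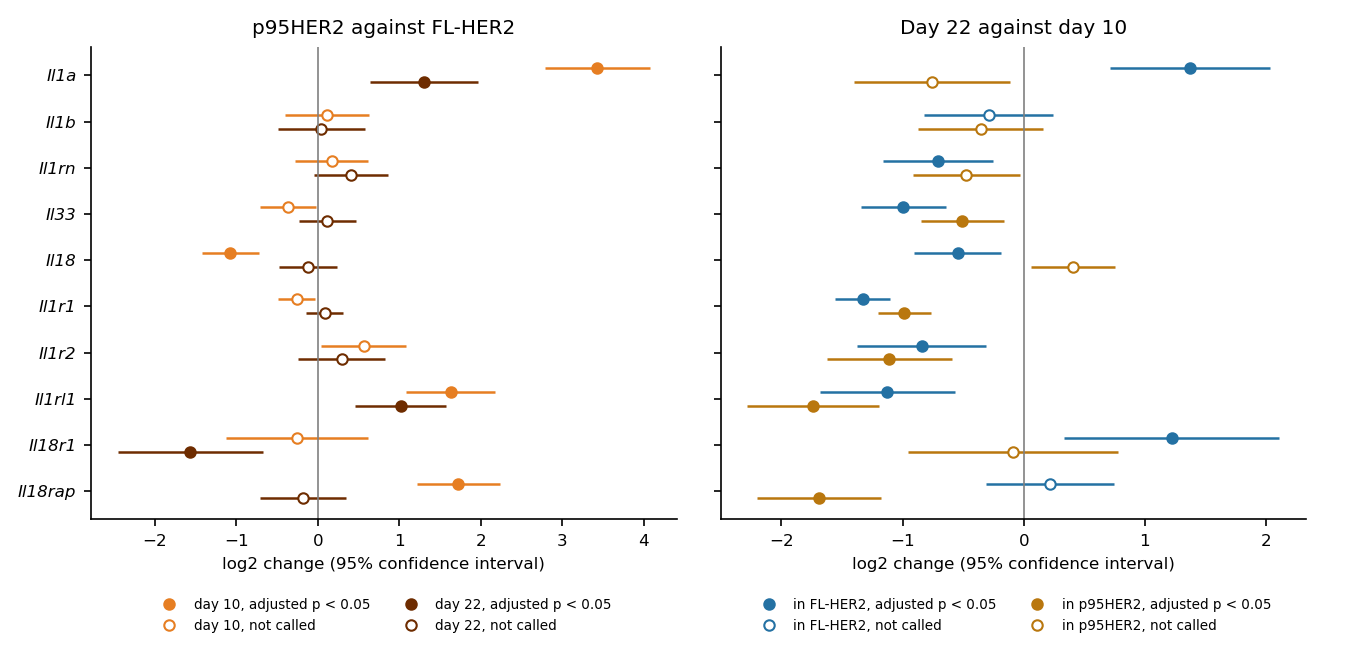
Log2 change of each member (horizontal axis) between constructs (left) and between days (right), with 95% confidence intervals and filled points at an adjusted p under 0.05. At day 10 Il1a (3.43), Il18rap (1.73) and Il1rl1 (1.63) lie right of 0 and Il18 (-1.07) left of it. With time Il1r1, Il1rl1, Il1r2 and Il33 lie left of 0 in both constructs.

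At day 22, 3 of 10 members were called between the constructs (Il1a and Il1rl1 higher, Il18r1 lower), while 4.52% of tested genes were called (2.98% higher, 1.54% lower). The 2 groups overlapped for all 10 members, and they did not overlap for 0.293% of tested genes (0.278% higher, 0.0147% lower). None of these 3 calls survived the leaving out of the 13 skin-high libraries, which left 8 libraries of FL-HER2 and 7 of p95HER2 from day 22 and lowered the calls over all genes from 617 to 203. The median log2 difference was 0.10 over the members and -0.01 over all tested genes.

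The change from day 10 to day 22 was then followed within each construct. These comparisons share their libraries with those between the constructs and are not independent of them. In FL-HER2 tumors 8 of 10 members were called, Il1a and Il18r1 higher and Il1r1, Il1rl1, Il33, Il1r2, Il1rn and Il18 lower at day 22, while 51.4% of tested genes were called (20.7% higher, 30.6% lower). In p95HER2 tumors 5 were called, all lower (Il1rl1, Il18rap, Il1r2, Il1r1 and Il33), while 35.2% of tested genes were called (16.6% higher, 18.6% lower). The median log2 change of the members was -0.63 in each construct, against -0.03 and 0.00165 over all tested genes.

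Il1r1 fell in both constructs without overlap between the days, which 9.67% of tested genes in FL-HER2 (2.78% higher, 6.89% lower) and 6.82% in p95HER2 (2.68% higher, 4.14% lower) also showed. In FL-HER2 its log2 change was -1.33 ± 0.11, a 2.51-fold lower level (adjusted p = 2.64e-12). In p95HER2 it was -0.98 ± 0.11, a 1.98-fold lower level (adjusted p = 2.62e-09). Both calls held in every other setting. Il1rl1 fell by 1.13 ± 0.28 in FL-HER2 (adjusted p = 0.000831) and by 1.74 ± 0.27 in p95HER2 (adjusted p = 1.97e-06), Il33 by 0.99 ± 0.17 (adjusted p = 9.5e-06) and 0.51 ± 0.17 (adjusted p = 0.0168), and Il1r2 by 0.84 ± 0.26 (adjusted p = 0.0072) and 1.11 ± 0.26 (adjusted p = 0.000624). Under quantile normalization the FL-HER2 fall of Il1r2 was no longer called (-0.45, adjusted p = 0.153). The decline thus covered the RNA of a ligand gene, Il33, and of its receptor gene, Il1rl1, whose membrane and soluble forms are not separated here. Fibroblast markers, genes of cells that can express both, fell in the same comparisons, 12 of 12 in FL-HER2 and 9 of 12 in p95HER2, with sums of 12909 ± 4175 CPM at day 10 and 2421 ± 611 CPM at day 22 for FL-HER2, and of 6350 ± 1482 CPM and 2027 ± 447 CPM for p95HER2. Markers of other cells fell too. Of 11 tumor and mammary epithelium markers 7 fell in each construct, beside 1 that rose in FL-HER2 and 2 in p95HER2. Of 12 endothelium markers 10 fell in FL-HER2, while 1 fell and 1 rose in p95HER2. The part of any of these markers in the fall of these members was not tested.

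Il18rap fell by 1.69 ± 0.25 in p95HER2 (adjusted p = 1.16e-06), where 9 of 10 day 22 libraries were below every day 10 library, and its change in FL-HER2 was 0.22 ± 0.26 (adjusted p = 0.507). Il18r1 rose by 1.22 ± 0.44 in FL-HER2 (adjusted p = 0.0195), beside a rise of 9 of 11 T cell markers, and its change in p95HER2 was -0.09 ± 0.43 (adjusted p = 0.9). Il1rn fell by 0.71 ± 0.22 in FL-HER2 (adjusted p = 0.00809), a call that ended with the muscle, neutrophil or macrophage score as covariate, and Il18 fell by 0.55 ± 0.18 (adjusted p = 0.00921), a call that ended with the macrophage covariate, in muscle-limited libraries and under quantile normalization. In FL-HER2 only the calls of Il1r1 and Il1rn remained with the term for the number of digits in the library number, which rests on 2 day 10 libraries.

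**Figure D3:**
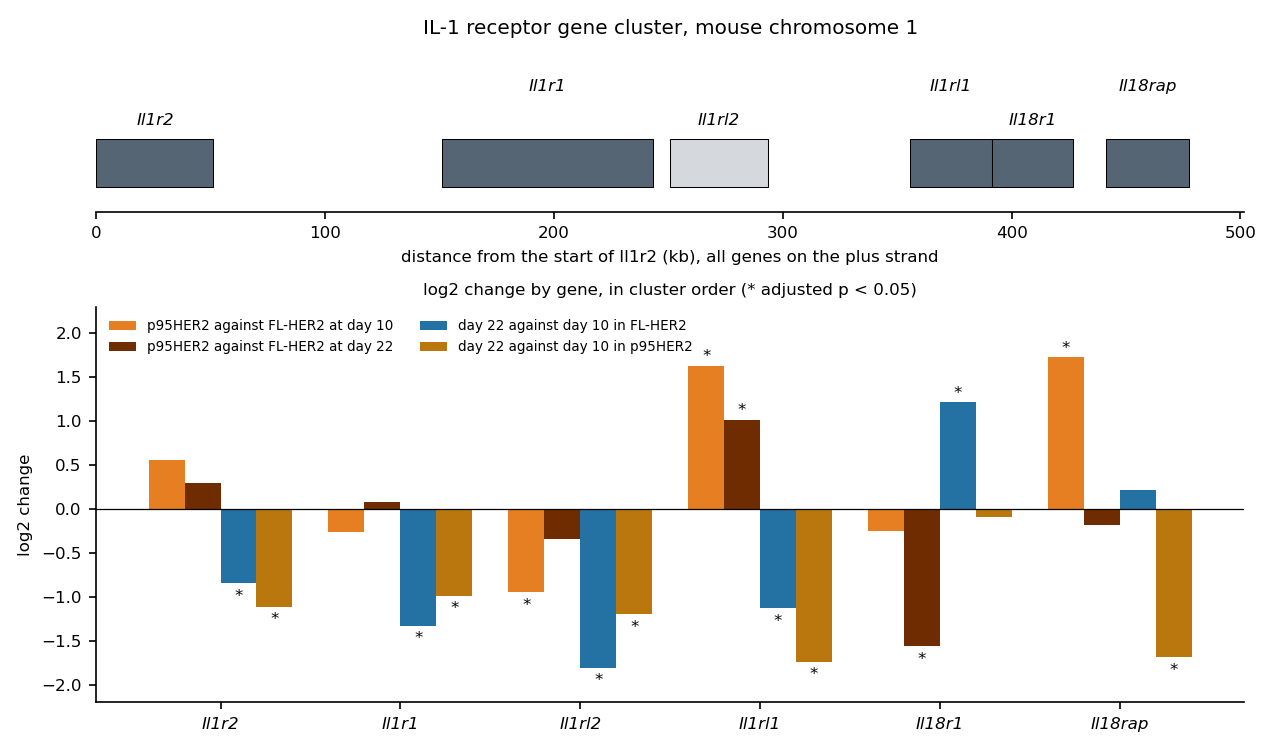
Top, position of the 6 receptor genes in kb from the start of Il1r2 (dark boxes are members, the light box is Il1rl2). Bottom, log2 change of each gene in cluster order (vertical axis) in 4 comparisons, with stars at an adjusted p under 0.05. Il1rl1 and Il18rap were higher in p95HER2 at day 10 (1.63 and 1.73), Il18r1 between them was not called (-0.25), and Il1rl2 was lower (-0.95).

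Neighbouring genes of the cluster had calls in opposite directions. At day 10 Il1rl1 and Il18rap were higher in p95HER2, Il1rl2, which encodes the IL-36 receptor, was lower (-0.95 ± 0.17, adjusted p = 3.92e-05, 7.66 ± 1.34 CPM with FL-HER2 and 4.21 ± 1.13 CPM with p95HER2), and Il1r2, Il1r1 and Il18r1 were not called. With time Il1r2, Il1r1, Il1rl2 and Il1rl1 fell in both constructs, with Il1rl2 at -1.80 ± 0.18 in FL-HER2 and -1.20 ± 0.17 in p95HER2. Slc9a2, a sodium-proton exchanger gene farther along the chromosome, was lower in p95HER2 at day 10 (-1.42, adjusted p = 0.00173).

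A further 4 genes of the family passed the filter. Il1rap, the accessory chain shared by the IL-1, IL-33 and IL-36 receptors, was higher in p95HER2 at day 10 (0.63 ± 0.11, adjusted p = 1.84e-05), at 43.3 ± 5.3 CPM against 27.5 ± 7.4 CPM in FL-HER2. At day 22 its difference was 0.35 ± 0.11 and not called (adjusted p = 0.0641). Il18bp, the secreted inhibitor of IL-18, and Sigirr, an inhibitory receptor of the family, were called in none of the 4 comparisons between groups. Il18bp varied widely between libraries, from 8.84 to 119.9 CPM in FL-HER2 at day 10. Its mean there was 15.3 CPM per kb of exon, against 2.09 CPM per kb for Il18. The IL-36 ligand genes Il1f6, Il1f8 and Il1f9 stayed under 0.23 CPM on average in each group and were not tested.

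**Figure D4:**
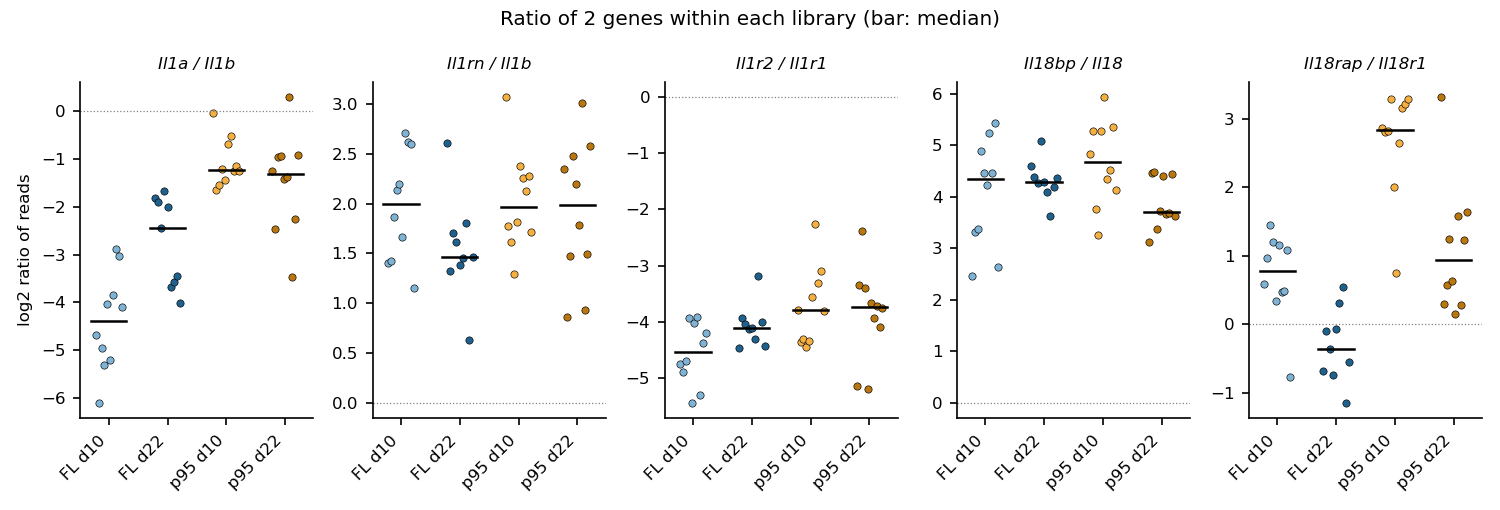
Log2 ratio of the reads of 2 genes within each library (vertical axis, 1 added to each count), for 5 gene pairs and 4 groups, with bars at the medians. Il1a over Il1b lies at a median of -4.39 in FL-HER2 day 10 and -1.22 in p95HER2 day 10, and Il18rap over Il18r1 at 0.77 and 2.84.

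The machinery around the family was read from lists of genes. Beside the counts of these lists, 15.2% of all tested genes were higher and 26.1% lower in p95HER2 at day 10. At day 22 these shares were 2.98% and 1.54%. Of 13 tested genes for processing and release of these cytokines, 2 were higher and 4 lower in p95HER2 at day 10, with a list median of -0.32. Prtn3, a neutrophil-type serine protease that can cut IL-1 family precursors, was higher (1.23 ± 0.16, adjusted p = 1.28e-07), and Capn2 was higher by 0.13. The inflammasome adaptor Pycard (-1.01 ± 0.21, adjusted p = 0.000158), the pyrin gene Mefv (-1.07 ± 0.20, adjusted p = 4.35e-05), the pore-forming Gsdmd (-0.87 ± 0.20, adjusted p = 0.000691) and Casp4 (-0.72 ± 0.24, adjusted p = 0.0141) were lower, in the comparison in which 15 of 16 macrophage markers were lower. Casp1, which cuts IL-1 beta and IL-18, was not called (-0.25 ± 0.11, adjusted p = 0.064). At day 22 only Prtn3 of the 13 was called (0.68 ± 0.16, adjusted p = 0.00934).

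Of 23 IL-1 receptor signaling genes 7 were higher and 3 lower at day 10, with a median of 0.03, and most of the differences were small. Nfkbiz, an atypical NF-kB cofactor, was higher by 0.54 ± 0.18 (adjusted p = 0.0131) and Zc3h12a, an RNase that limits inflammatory transcripts, by 0.50 ± 0.17 (adjusted p = 0.0172). Irak3, which encodes an inhibitory IRAK of myeloid cells, was lower by a log2 value of -0.87 ± 0.15 (adjusted p = 2.05e-05). Myd88, Irak1, Irak4 and Traf6 were not called at either day. At day 22, 1 of the 23 genes was called, Tollip (0.14 ± 0.04, adjusted p = 0.0327).

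Genes that IL-1 is known to induce in other systems moved in both directions at day 10, with 6 of 18 tested genes higher and 3 lower and a median of 0.15. Csf3, which encodes the granulocyte growth factor G-CSF, was higher by 2.33 ± 0.38 (adjusted p = 6.53e-06), at 4.53 ± 2.64 CPM against 0.897 ± 0.539 CPM. The collagenase gene Mmp13 was higher by 1.49 ± 0.26 (adjusted p = 1.8e-05) and Ptgs2, the inducible cyclooxygenase, by 1.0 ± 0.18 (adjusted p = 3.37e-05). The monocyte chemokines Ccl2 (-1.55 ± 0.29, adjusted p = 4.49e-05) and Ccl7 (-1.47 ± 0.28, adjusted p = 6.42e-05) and the adhesion gene Icam1 (-0.97 ± 0.21, adjusted p = 0.000267) were lower. At day 22, 6 of the 18 were higher and none lower, with a median of 0.31. Cxcl5, a neutrophil chemokine, was higher by 2.84 ± 0.42 (adjusted p = 1.25e-05), Steap4 by 0.75 ± 0.10 (adjusted p = 1.67e-06), Mmp13 by 1.41 ± 0.26 (adjusted p = 0.000709) and Ptgs2 by 0.86 ± 0.19 (adjusted p = 0.00426). Csf3, Cxcl5, Mmp13, Ptgs2 and Lcn2 were called higher in p95HER2 at both days. These genes also answer to signals other than IL-1.

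Over time 10 of the 18 response genes fell in each construct, beside 1 that rose in FL-HER2 and 2 in p95HER2. Of all tested genes 30.6% were lower and 20.7% higher in FL-HER2, and 18.6% were lower and 16.6% higher in p95HER2. Ptgs2 fell by 1.78 ± 0.19 in FL-HER2 (adjusted p = 3.45e-10) and by 1.92 ± 0.18 in p95HER2 (adjusted p = 5.05e-11). Cxcl1, a neutrophil chemokine, rose in both (1.09 ± 0.45, adjusted p = 0.0394, and 1.84 ± 0.44, adjusted p = 0.000917). Defining neutrophil genes were low throughout. Ly6g was at 0 in 36 of 39 libraries, and 7 defining neutrophil genes, a set chosen after the values were seen, together reached 0.551 ± 0.217 CPM with FL-HER2 and 1.41 ± 0.74 CPM with p95HER2 at day 10. The full list of 14 neutrophil markers had sums of 21.5 ± 5.22 CPM (median 20.1) and 23.5 ± 11.1 CPM (median 17.8) in these groups. Of its 6 tested genes 2 were higher and 2 lower in p95HER2 at day 10, with a median log2 difference of -0.36.

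**Figure D5:**
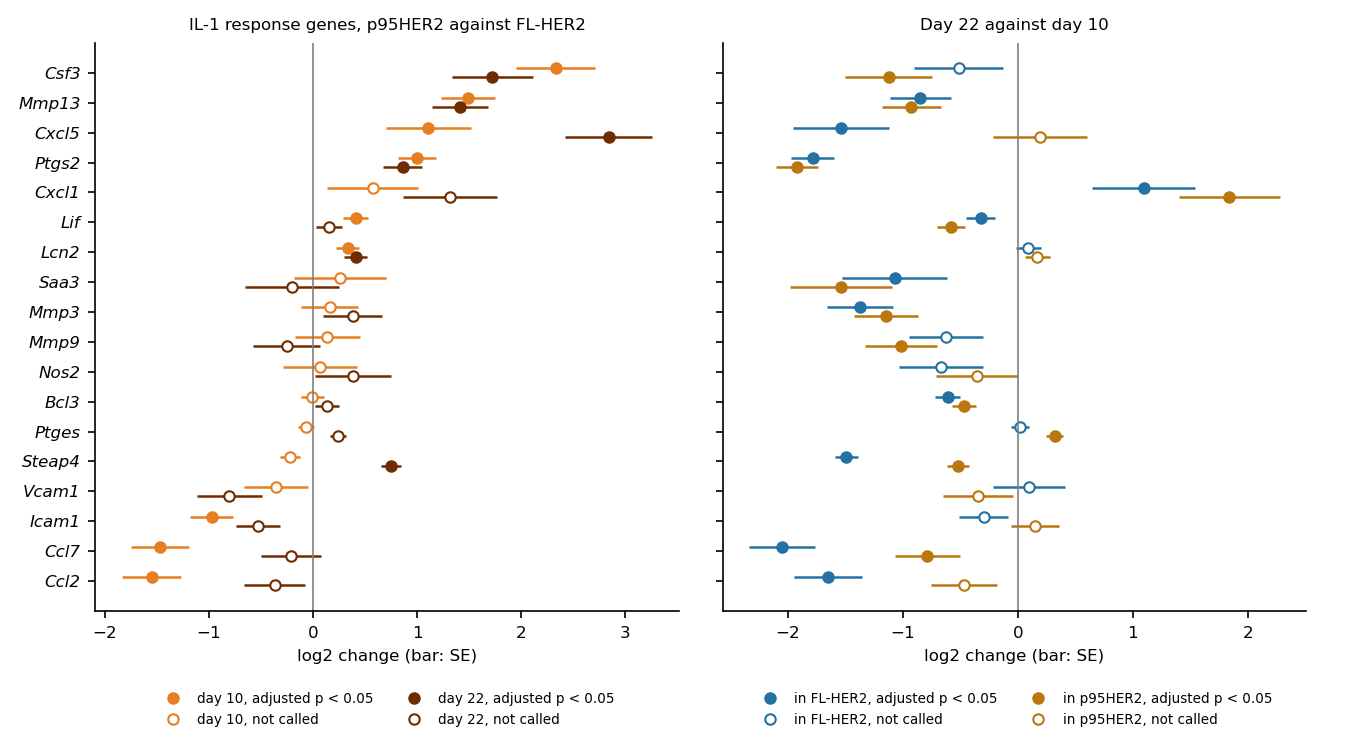
Log2 change (horizontal axis) of the 18 tested IL-1 response genes between constructs (left) and between days (right), with SE bars and filled points at an adjusted p under 0.05. Csf3, Mmp13, Cxcl5 and Ptgs2 lie right of 0 at both days, while Ccl2 and Ccl7 lie left of 0 at day 10 (-1.55 and -1.47).

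Of 10 tested genes induced by IL-18 or IL-33, 1 was higher and 2 lower in p95HER2 at day 10. Areg, which encodes the EGF receptor ligand amphiregulin and is induced by IL-33 in some lymphocytes as well as by growth factor signaling in epithelium, was higher by 3.27 ± 0.30 (adjusted p = 1.01e-10), and Rora and Ccl22 were lower. Ifng and Gzmb, targets of IL-18 in lymphocytes, were not called between the constructs at either day. Il13, a product of IL-33-stimulated cells, averaged 0.225 CPM at day 10 with FL-HER2 and 0.319 CPM with p95HER2.

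For the members other than Il1r1 the tested genes most like each in the spread within groups were found, by Pearson's r of log2 values over the 39 libraries after each group mean was subtracted. For Il18r1 these were the T cell genes Cd3g (0.84), Itgal (0.83) and Cd2 (0.83), and for Il18rap Chd7 (0.85), Stat5b (0.85) and the cytotoxic granule gene Nkg7 (0.83). Il18r1 and Il18rap themselves had an r of 0.67. Il1rn was nearest to Gzmb (0.88) and Il18 to Ly6a (0.72). Il1a was nearest to Irak2 (0.72), Il33 to Krt19 (0.69) and Il1rl1 to the serine protease gene Prss22 (0.70). Il1b was nearest to Pilra (0.73), and Il1r2 to the epidermal protease gene Asprv1 (0.65), with Krt1 at 0.62. These libraries share the surrounding tissue that each tumor was cut with, and the values are descriptions without a test.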

How the data were processed

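Poly(A) RNA from 39 mouse tumor grafts was sequenced in directional libraries, per the labels' protocols. The submitters' processing notes name STAR 2.4.2a, mm10 and DESeq2. No source used here names the counter, the annotation or the strand setting. The authors' deposited table holds log2 values, log2(read count / size factor + 1), although its name says CPM. Undoing the log2 gave whole multiples of 1 step per library for 100% of values (tolerance 0.001 reads), and the whole reads recovered in this way gave CPM.

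Groups came from the labels, and no 2 libraries had identical values. One FL-HER2 day 10 library has a number in its title that differs from its description, which names its column. The filter kept 13650 genes that reached 1 CPM in 9 or more libraries, all 10 members among them. They were fitted over all 39 libraries, 1 coefficient per group, in R 4.3.3 (limma 3.58.1, trended eBayes, two-sided), and p-values were Benjamini-Hochberg adjusted over all of them in each of 5 contrasts. The script was tested on simulated data. At this depth 1 CPM is at least 21.8 reads.

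The members and gene lists were chosen with earlier results of these data known. Named genes are the members, up to 4 called genes of the smallest adjusted p per pathway list and contrast, up to 2 per cell type list, and genes among the 3 most like each member (for Il1r1 not reported here). Other pathway genes (Casp1, Myd88 and the like) were chosen after their values were seen. Positions are from GENCODE M21 and promoters from RefSeq (GRCm38.p6). Alternatives covered scaling, pseudocount, filter, test, library weights, covariates and left-out libraries. A skin score threshold of 7 was chosen after seeing the data.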

Additional observations from a re-analysis of the deposited data

Results flagged for a closer look

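Among 40 combinations of member and group, 4 held 1 library that stood far from the rest by Dixon's criterion, where chance gives about 1 in 20. Il1r1 in FL-HER2 day 22 replicate 6 was highest, at 25.4 CPM, and so was Il1rl1 in the same library, at 5.37 CPM. Il1r2 in p95HER2 day 10 replicate 7, a skin-high library, was highest at 6.86 CPM. Il18r1 in p95HER2 day 22 replicate 1 was lowest, at 0.0564 CPM or 2 reads.

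For 3 members the p95HER2 effect differed between day 10 and day 22 by a test of the difference itself (limma). It changed by -2.13 on the log2 scale for Il1a, by -1.90 for Il18rap and by 0.95 for Il18.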

How the results depend on the processing

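Of 905 single-gene values under other settings, 801 kept their direction and side of the threshold, 37 lost a call, 38 gained one and 29 changed sign. Of 1170 values with 1 library left out, 1124 kept both, 14 lost a call, 18 gained one and 14 changed sign. Of the values that changed sign, 0 were called under either setting, and the cause was not tested. The number of members called at day 10 was 4 and became 1 with a filter at 5 CPM, which tests only 5 members. It rose in other settings. With library weights Il1r1 and Il1r2 were also called at day 10. With the macrophage covariate Il1b, Il1rn and Il1r1 were also called and Il18 was not. At day 22 it was 3 and became 1 with that filter, 1 with only the groups compared, 1 in muscle-limited libraries, and 0 with the rank-sum test or without the skin-high libraries at either threshold. Over time in FL-HER2 it was 8 and became 4 with the 5 CPM filter and 2 with the digits term. Over time in p95HER2 it was 5 and became 3 with the 5 CPM filter, 8 with library weights and 8 with the macrophage covariate. For the change between days it was 3 and became 0 with the 5 CPM filter, 0 with the digits term, 1 in muscle-limited libraries and 5 with the muscle covariate. The filter tests fewer members and some settings hold fewer libraries, and the cause of these changes was not tested. Leaving out 1 library at a time gave 4 to 6 members at day 10, 1 to 3 at day 22, 8 over time in FL-HER2, 5 to 6 over time in p95HER2 and 3 to 4 for the change between days. At day 22 the count was 1 without FL-HER2 replicate 3, without FL-HER2 replicate 4 or without p95HER2 replicate 4.

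The change between days was no longer called with the digits term for Il1a (-1.26, adjusted p = 0.315), Il18 (0.94, adjusted p = 0.166) and Il18rap (-1.71, adjusted p = 0.0716). In muscle-limited libraries the calls ended for Il1a (-2.3, adjusted p = 0.0567) and Il18 (0.83, adjusted p = 0.276). Over all genes, calls moved by over 1.5 times in several settings. At day 10 the 5636 calls became 1375 with the digits term, 2010 with the macrophage covariate and 638 in muscle-limited libraries. The muscle-limited libraries of day 10 were only 3 of FL-HER2 and 4 of p95HER2. For the change between days the 2682 calls became 233 with the digits term and 167 in muscle-limited libraries. Over time in FL-HER2 the 7011 calls became 2953 with the digits term. At day 22 the 617 calls became 1418 with library weights, 266 with the rank-sum test and 203 without the skin-high libraries.

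The values that changed sign are log2 differences. At day 10 Il1b became -0.093 and -0.089 without skin-high libraries at the 2 thresholds, Il1rn -0.41 with the digits term and -0.021 without skin-high libraries at threshold 7. Il18r1 became 0.27 under quantile normalization, 0.60 with the muscle and 1.44 with the macrophage covariate, 0.0049 without skin-high libraries at threshold 6 and 0.34 in muscle-limited libraries. At day 22 Il1b became -0.074 with library weights, Il33 -0.065 without skin-high libraries at either threshold and -0.081 in muscle-limited libraries, and Il18 0.035 under quantile normalization and 0.19 with the macrophage covariate. Il1r1 became -0.042 with the macrophage covariate, and Il18rap 0.0076 with the muscle and 0.29 with the macrophage covariate. Over time in FL-HER2, Il1b became 0.067 under quantile normalization, 0.29 with the macrophage covariate and 0.078 in muscle-limited libraries. Over time in p95HER2, Il18r1 became 0.082 under quantile normalization, 0.063 on the log2(CPM + 1) scale and 0.0062 with library weights. For the change between days Il1b became 0.19 without skin-high libraries at either threshold, Il1rn -0.019 with the muscle and -0.33 with the macrophage covariate, and Il1r2 0.063 in muscle-limited libraries. With 1 library left out, Il1b ranged from -0.11 to 0.17 and Il33 from -0.012 to 0.20 at day 22, Il18r1 from -0.27 to 0.28 over time in p95HER2, and Il1b from -0.22 to 0.058 for the change between days.

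No paired analysis was possible because the labels give no replicate numbers shared between groups, and the numbers used here follow the order of the records. The count model planned on recovered reads was not run, and voom was run on those reads. The rank-sum test and the fit on only the groups compared do not apply to the change between days. Depth limits Il1a in FL-HER2 at day 10 and Il18r1 in p95HER2 at day 22, where single libraries held 2 reads.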
